A study of Mus musculus with 27 samples.

Results

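The collagen chain genes of the mouse heart were followed through embryonic and adult material from mice with knockout alleles of Hand2os1 (other names Hand2as and Uph), which encodes a long non-coding RNA and lies beside Hand2, a heart transcription factor gene. The members were all genes whose symbol reads Col, a number, the letter a and a number. This gave 44 of 24025 genes in the bulk RNA table, of which 11 were fibrillar, 8 were basement membrane and 25 were other collagens. In the single-cell table it gave 43 of 19010 genes, all of the 44 except Col10a1.

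All mice were of the C57BL/6 strain. The F allele is the knockout of the full length of the gene and the D allele the knockout of its 3′ distal part. The bulk libraries, made from polyadenylated RNA, came from whole hearts of the embryonic stage E11.5 with 3 F/+ and 3 F/F samples, from ventricles at E16.5 with 3 F/+ and 3 F/F samples, and from isolated cardiomyocytes at 8 weeks with 5 +/+, 2 D/+ and 6 D/D samples. The embryonic controls therefore carry 1 knockout allele, and no embryonic bulk sample is +/+. The single-cell libraries, 1 of +/+ and 1 of F/F, each came from 6 pooled E11.5 hearts that were dissociated with trypsin and sorted for living cells. The labels do not say whether replicates were separate animals, so each p-value measures the spread between these libraries, which may be technical. Stage and dissected tissue change together between E11.5 and E16.5, and age, tissue preparation and allele change together between E16.5 and 8 weeks, so these cannot be told apart.

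Collagen chains wind together into a helix inside the cell, after hydroxylation of prolines and lysines, and are secreted as trimers. Types I, III and V assemble into the fibrils that give the heart wall and valves their tensile strength, and are made in the heart mainly by epicardium-derived fibroblasts and valve mesenchyme. Type IV forms the sheet-like network of basement membranes under endothelium and around each cardiomyocyte, where the multiplexin types XV and XVIII are also found, while type VI forms beaded filaments and the fibril-associated types IX, XII, XIV and XVI decorate fibrils made of other chains.

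Some facts of the libraries bear on every value below. Values in the bulk table are FPKM, a read level scaled to transcript length and to the size of the library, whose sum per library ran from 334194 to 586795. Between 9495 and 11641 genes reached 1 FPKM, and the depth in reads is unknown. Red-cell genes took part of the total at E11.5, where 8 erythroid markers summed to 39215 to 136216 FPKM per library, against 131 to 3304 at E16.5. Cardiomyocyte markers summed to 25373 to 38859 FPKM at 8 weeks, but 10 adult fibroblast markers still summed to 106 to 567 and 11 endothelial markers to 134 to 597 in these libraries, so the isolated cells were not free of other cell types. Most of the fibroblast sum was Gsn, at a mean of 148 FPKM in +/+ and 193 in D/D, beside Dcn at 32.4 and 35.1. The targeted transcript had a value of 0 in each of the 6 libraries of E11.5 and in the 3 F/F libraries of E16.5, and of 0.37 to 1.4 FPKM in the 3 F/+ libraries of E16.5. At 8 weeks it stood at 5.25 to 13.48 FPKM in 6 control libraries, at 0 in the library labelled +/+ replicate 5, and at 0 to 2.67 in D/D. In the single-cell table it had 1 UMI in the library labelled +/+ and 9 in the library labelled F/F, an order against the labels, so there the gene does not tell the genotypes apart.

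Collagen transcripts as a whole rose and then fell to a low level along the series. They made up 0.158 to 0.294% of summed FPKM at E11.5, 0.706 to 0.769% at E16.5 and 0.041 to 0.109% in 8-week cardiomyocytes, with no overlap between the 3 kinds of sample. The makeup changed with them. Fibrillar chains held 42.6 to 52.1% of collagen FPKM at E11.5 and 55.6 to 58.6% at E16.5, but 9.30 to 19.1% at 8 weeks, when basement membrane chains held 62.3 to 83.7%. Between 25 and 28 members reached 1 FPKM in each embryonic library, and 13 to 18 did so at 8 weeks. In bulk RNA, fewer cells of a type and less RNA per cell cannot be told apart.

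**Figure D1:**
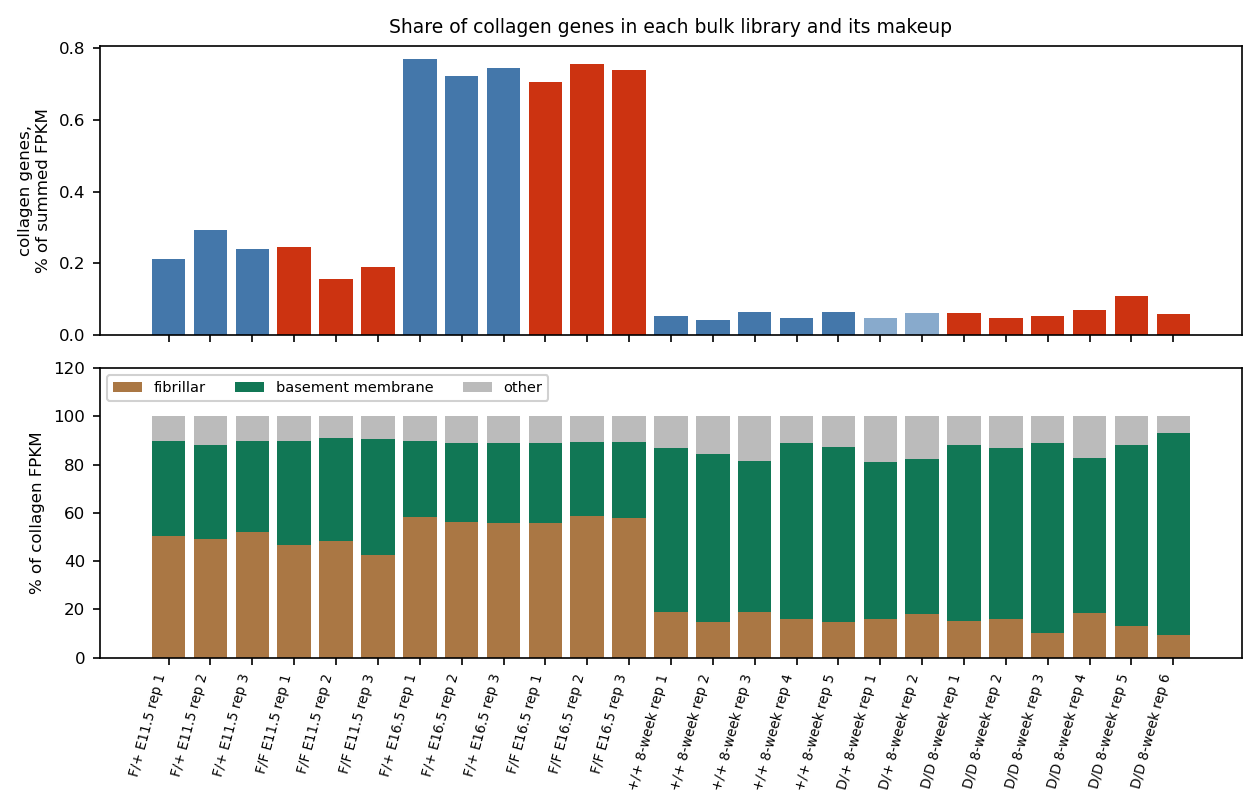
Collagen share of summed FPKM in each bulk library (upper panel, percent) and the fibrillar, basement membrane and other shares of collagen FPKM (lower panel, percent), with libraries along the x axis in their groups. The E16.5 libraries stand highest in the upper panel at 0.706 to 0.769%, and the 8-week libraries have the largest basement membrane share in the lower panel.

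By level, E11.5 F/+ hearts were led by Col1a1 (176 ± 48.6 FPKM, SD, n = 3), Col18a1 (153 ± 18.8), Col3a1 (122 ± 3.24) and Col4a1 (122 ± 12.2). Col1a1 and Col18a1 overlapped in their libraries, as did Col3a1 and Col4a1, while Col18a1 lay above Col3a1 in each library. At E16.5 the order in F/+ was Col1a1 (551 ± 84.4), Col3a1 (423 ± 10.4), Col4a1 (355 ± 12.3), Col1a2 (279 ± 13.1) and Col4a2 (257 ± 11.2), and of these neighbours only Col1a2 and Col4a2 overlapped. In +/+ cardiomyocytes at 8 weeks Col4a1 (70.8 ± 22.9, n = 5) and Col4a2 (70.8 ± 11.9) led, and the next, Col6a2, stood at 14.6 ± 5.37. Of the 44 members, 30 averaged 1 FPKM or more across the samples of some comparison and were tested there. The other 14 were Col4a3, Col4a4, Col6a4, Col6a5, Col7a1, Col10a1, Col11a2, Col17a1, Col19a1, Col20a1, Col22a1, Col24a1, Col25a1 and Col28a1. None of these 14 exceeded 1 FPKM in any library apart from Col11a2, whose highest value was 1.15.

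The first comparison set E16.5 ventricles against E11.5 hearts within each genotype, and most of the abundant collagens were higher at the later stage. In F/+, 28 members were tested with limma on log2(FPKM + 1), and 15 rose and 7 fell at a Benjamini-Hochberg adjusted p under 0.05. Among all 11423 genes tested, 49.5% were called, 18.3% as higher and 31.2% as lower. Scaling moves this last split, to 2972 higher and 2815 lower genes with median ratios in place of 2088 and 3568, while 15 members then rose and 6 fell. In F/F, 16 members rose and 8 fell, against 50% of genes called, 18.8% higher and 31.2% lower (2151 and 3561 genes, or 3001 and 2794 with median ratios, with 16 and 7 members). The median log2 fold change of the tested members was 0.81 in F/+ and 0.83 in F/F, beside -0.18 and -0.16 over all genes. Of the 28, 5 in F/+ and 6 in F/F passed the filter only through the stage at which they were high. These were Col2a1, Col9a1 and Col9a3 at E11.5, and Col6a6, Col14a1 and, in F/F alone, Col15a1 at E16.5.

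**Figure D2:**
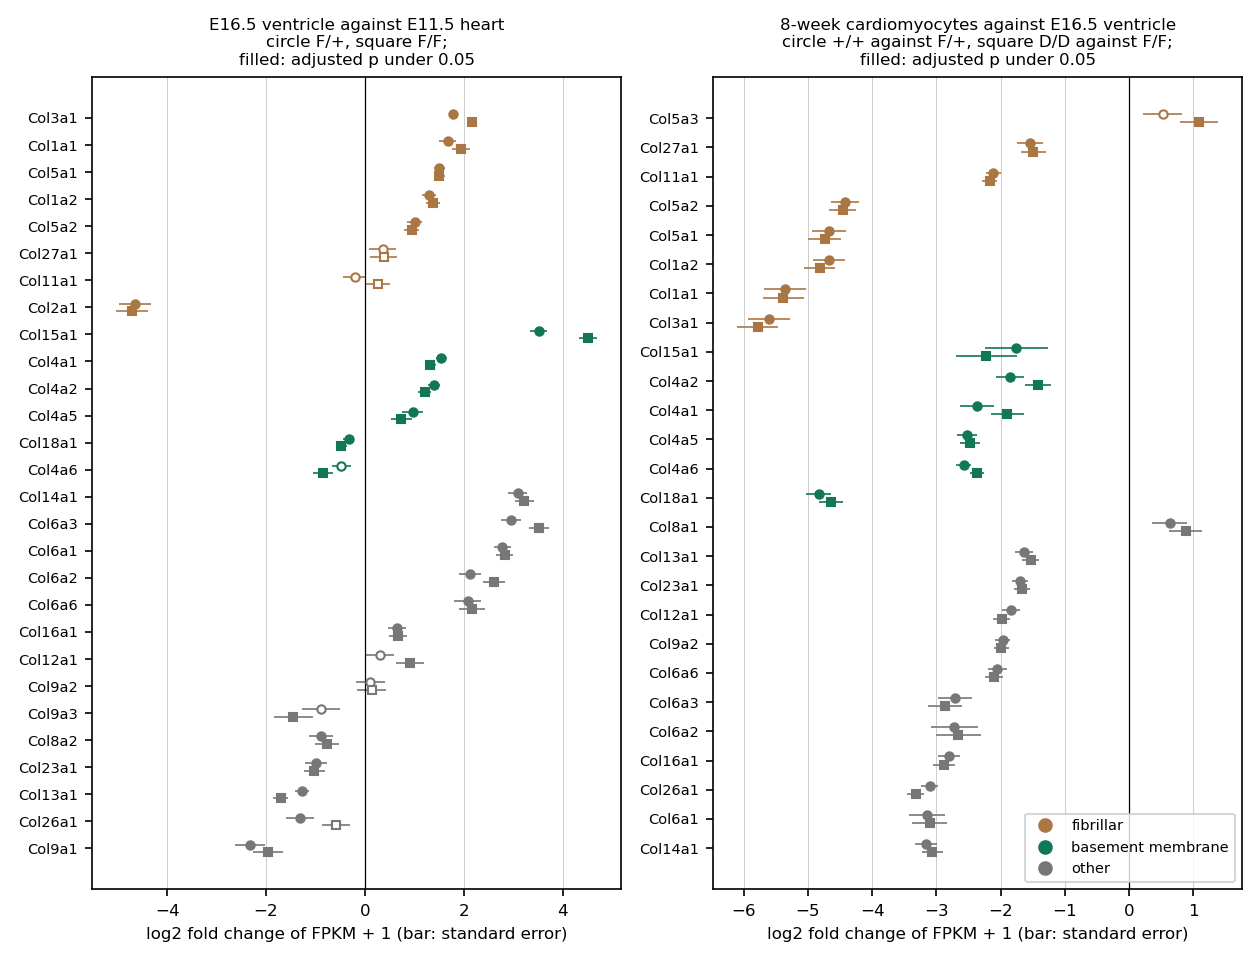
Log2 fold change with its standard error for each tested collagen gene, E16.5 against E11.5 on the left (circles F/+, squares F/F) and 8 weeks against E16.5 on the right, coloured by role, with filled symbols at adjusted p under 0.05. On the left, type VI, type XIV and type XV chains lie highest and Col2a1 lowest, and on the right nearly all points lie below 0.

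Fibrillar chains rose as a block of 5, apart from the cartilage-type chain. Col1a1, the main chain of type I collagen, stood at 131.93, 166.75 and 227.94 FPKM in the F/+ hearts of E11.5 and at 141.42, 139.08 and 131.23 in the F/F hearts. In E16.5 ventricles it reached 648.07, 492.36 and 513.92 in F/+ and 469.66, 538.74 and 586.04 in F/F. Every E16.5 library lay above every E11.5 library, and the log2 fold change was 1.67 ± 0.18 (SE, adjusted p = 7.78e-06) in F/+ and 1.94 ± 0.18 (adjusted p = 2.41e-06) in F/F. Col3a1, the chain of the thinner type III fibrils, stood at 119.64 to 125.75 FPKM in F/+ and 97.47 to 103.66 in F/F at E11.5, and at 412.62 to 433.49 and 433.69 to 481.18 at E16.5. Its log2 fold change was 1.79 ± 0.09 in F/+ and 2.17 ± 0.09 in F/F. Col1a2 (1.30 and 1.38), Col5a1 (1.5 and 1.51) and Col5a2 (1.0 and 0.95) also rose in both genotypes, type V being the chain set that sets fibril width. Col11a1 and Col27a1, at means of 2.53 to 4.28 FPKM, did not pass the test in either genotype.

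The 2 chains of type I did not rise in step. Type I collagen is built from 2 α1 chains and 1 α2 chain, and the Col1a1 to Col1a2 FPKM ratio was 1.18 to 1.67 over the 6 E11.5 libraries, 1.74 to 2.25 over the 6 E16.5 libraries, and 0.924 to 1.85 over the 8-week libraries. The E11.5 and E16.5 ranges did not overlap. No test was made of these ratios.

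Col2a1, the chain of cartilage collagen, went the other way by the largest amount of any member. It stood at 34.42, 66.61 and 23.54 FPKM in F/+ and 63.09, 36.17 and 32.66 in F/F hearts at E11.5, against 0.45 to 0.71 and 0.52 to 0.80 in E16.5 ventricles. The log2 fold change was -4.66 ± 0.32 (adjusted p = 2.36e-07) in F/+ and -4.71 ± 0.32 (adjusted p = 2.23e-07) in F/F. At 8 weeks it was listed at 0 in all libraries except +/+ replicate 3, at 0.02. Col9a1, which with Col9a2 and Col9a3 forms the type IX collagen that coats type II fibrils, fell from 3.89 to 9.65 FPKM at E11.5 to 0.43 to 1.38 at E16.5, a log2 fold change of -2.33 ± 0.30 in F/+ and -1.96 ± 0.30 in F/F. Col9a3 fell in F/F (-1.45 ± 0.39, adjusted p = 0.00754) and stood at -0.89 ± 0.39 in F/+ (adjusted p = 0.0723), and Col9a2 passed in neither (0.11 and 0.13). Col2a1, Col9a1 and Col9a3 passed the low-value filter through E11.5 alone. Cartilage markers summed to 21.2 to 40.8 FPKM at E11.5 and 2.57 to 4.93 at E16.5, but the 2 that were tested went opposite ways. Hapln1 fell from a mean of 25.8 to 0.63 FPKM in F/+, and Comp rose from 0.30 to 1.98. Of the 5 in the table, Matn1, a cartilage matrix protein, was at 0 in all 12 embryonic libraries and 2 had a mean of at least 1 FPKM at E11.5. Their part in the fall of Col2a1 was not tested in bulk, and the single-cell values given further on show which cells held the transcript at E11.5.

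Type VI chains rose the most as a group. Of 6 members, 4 were tested and all 4 were called in both genotypes, with a median log2 fold change of 2.45 in F/+ and 2.72 in F/F. These include Col6a6, which passed the filter through E16.5 alone in both genotypes. Col6a1 went from 9.30 to 16.17 FPKM over the 6 E11.5 hearts to 88.09 to 97.32 over the 6 ventricles, with log2 fold changes of 2.78 ± 0.17 and 2.83 ± 0.17. Col6a2 went from 8.97 to 26.46 to 92.11 to 101.78 FPKM (2.13 ± 0.22 and 2.62 ± 0.22). Col6a3, the long chain that completes the heterotrimer with both, went from 1.06 to 2.84 to 23.25 to 27.28 FPKM (2.96 ± 0.20 and 3.53 ± 0.20). At E16.5 the Col6a3 to Col6a1 ratio was between 0.257 and 0.286 in all 6 libraries, against 0.0656 to 0.233 at E11.5. Col6a6, an alternative chain of low level, rose by 2.08 ± 0.27 and 2.17 ± 0.27.

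Among basement membrane chains, the type IV pair and the 2 multiplexins parted. Col4a1 stood at 108.96, 133.22 and 122.42 FPKM in F/+ and 135.87, 123.75 and 153.04 in F/F at E11.5, and at 336.44 to 362.30 over the 6 ventricles, log2 fold changes of 1.54 ± 0.11 and 1.33 ± 0.11. Its partner Col4a2 rose by 1.40 ± 0.13 and 1.21 ± 0.13. The 2 genes lie head to head on chromosome 8 of GRCm38, their starts 21 bases apart, and their ratio stayed between 1.15 and 1.42 in all 12 embryonic libraries. At 8 weeks the ratio was 0.84 to 1.26, under the lowest E16.5 value of 1.31. Col4a5 and Col4a6, a second head-to-head pair on chromosome X with starts 1309 bases apart, did not move together. Col4a5 rose by 0.96 ± 0.21 (adjusted p = 0.00189) in F/+ and 0.74 ± 0.21 (adjusted p = 0.01) in F/F, whereas Col4a6 fell in F/F (-0.85 ± 0.20, adjusted p = 0.00304) and stood at -0.47 ± 0.20 in F/+ (adjusted p = 0.0598). Their ratio was 2.07 to 2.81 at E11.5, 6.37 to 8.89 at E16.5 and 17.8 to 74.1 at 8 weeks, 3 ranges that did not overlap.

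Among the tested members Col15a1 showed the largest rise on the log2(FPKM + 1) scale, though by fold of means Col14a1 rose more in F/+ (20.6 against 16.4). In F/F Col15a1 passed the low-value filter through E16.5 alone. This multiplexin, a proteoglycan of muscle and capillary basement membranes, stood at 2.15, 2.52 and 1.59 FPKM in F/+ and 0.65, 0.32 and 0.80 in F/F at E11.5. At E16.5 it reached 38.87, 30.05 and 33.49 in F/+ and 34.76, 34.22 and 36.22 in F/F, log2 fold changes of 3.51 ± 0.18 (adjusted p = 1.98e-08) and 4.52 ± 0.18 (adjusted p = 3.60e-09). Col18a1, its closest relative and the source of endostatin, was at 131.18 to 175.66 FPKM at E11.5 and 109.61 to 124.36 at E16.5. Its log2 fold change was -0.32 ± 0.11 in F/+ (adjusted p = 0.0304) and -0.48 ± 0.11 in F/F (adjusted p = 0.00368). With median-ratio scaling, which moved the median of all genes from -0.18 to 0.01 in F/+, Col18a1 stood at -0.11 and -0.26 and neither call held (adjusted p = 0.508 and 0.119). The F/+ call was also lost without any 1 of 5 libraries (adjusted p 0.0661 to 0.0978).

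Among the remaining chains, Col14a1, which binds type I fibrils, rose from 0.26 to 0.91 FPKM to 12.20 to 13.15 (3.09 ± 0.19 and 3.23 ± 0.19), and Col16a1 rose by 0.65 ± 0.18 and 0.68 ± 0.18. Of 4 transmembrane collagens 2 were tested, and both fell. Col13a1 went from 10.21 to 15.86 FPKM to 3.43 to 4.39 (-1.27 ± 0.15 and -1.71 ± 0.15) and Col23a1 from 5.43 to 9.92 to 2.54 to 3.66 (-0.99 ± 0.22 and -1.02 ± 0.22). Col8a2, a short-chain network collagen, fell by 0.89 and 0.77 on the log2 scale, the F/F call being lost without E11.5 replicate 1 or E16.5 replicate 2 (adjusted p = 0.0539 and 0.0531). Col26a1 was called in F/+ (-1.32 ± 0.28, adjusted p = 0.00167) and not in F/F (-0.59 ± 0.28, adjusted p = 0.0953), where the fit with the replicate number as a block called it (adjusted p = 0.0493). Col12a1 was called in F/F (0.91 ± 0.28, adjusted p = 0.0166) and not in F/+ (0.30 ± 0.28, adjusted p = 0.40). The Col12a1 call was lost without E11.5 replicate 2 or E16.5 replicate 3 of F/F (adjusted p = 0.0654 and 0.0676). Whether the genotypes differ in these steps is the interaction test given below, which called neither.

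Sequences just upstream of the start are shown for 3 members that rose together, Col3a1, Col6a3 and Col15a1, for the 2 tested transmembrane members, which fell together, Col13a1 and Col23a1, and for 2 members on which later results turn, Col5a1 and Col8a1. Each run is the 100 bases before the RefSeq start on GRCm38.p6, written 5′ to 3′ on the gene's strand. The windows are chr1:45311438-45311537 on the plus strand for Col3a1, chr1:90843972-90844071 on the minus strand for Col6a3, chr4:47207912-47208011 (plus) for Col15a1, chr10:61979109-61979208 (minus) for Col13a1, chr11:51289820-51289919 (plus) for Col23a1, chr2:27886325-27886424 (plus) for Col5a1 and chr16:57754738-57754837 (minus) for Col8a1. None of them overlaps an exon of the GENCODE annotation. Capitals mark the CCAAT box, the TATA box (searched as TATAAA) and the core of a GC box (searched as GGGCGG), each on either strand.
Col3a1: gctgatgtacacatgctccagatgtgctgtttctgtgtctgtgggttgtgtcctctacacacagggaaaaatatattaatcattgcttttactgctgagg
Col6a3: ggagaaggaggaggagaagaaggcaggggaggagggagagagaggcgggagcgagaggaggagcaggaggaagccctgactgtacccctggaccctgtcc
Col15a1: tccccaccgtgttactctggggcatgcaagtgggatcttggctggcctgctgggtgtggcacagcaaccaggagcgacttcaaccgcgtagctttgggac
Col13a1: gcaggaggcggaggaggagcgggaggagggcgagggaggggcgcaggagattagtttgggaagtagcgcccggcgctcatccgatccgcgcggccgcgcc
Col23a1: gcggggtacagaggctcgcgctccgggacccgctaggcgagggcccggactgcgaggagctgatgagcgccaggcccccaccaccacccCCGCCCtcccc
Col5a1: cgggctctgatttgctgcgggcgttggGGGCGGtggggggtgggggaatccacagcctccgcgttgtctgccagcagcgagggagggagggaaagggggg
Col8a1: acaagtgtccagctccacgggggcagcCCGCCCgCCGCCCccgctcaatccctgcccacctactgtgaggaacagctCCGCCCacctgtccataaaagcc
The GC box core was the only one of these motifs in the windows shown, once in Col23a1 and Col5a1 and 3 times in Col8a1. RefSeq promoter entries matched 35 of the 44 members, with 38 entries in all. GGGCGG was in 18 of these 38 windows (47.4%) and in 24.7% of all 32851 promoter entries cut to the same length. CCAAT was in 4 (10.5%, against 18.9%) and TATAAA in 2 (5.26%, against 5.56%). A match is only the presence of these letters. The windows of Col3a1, Col6a3 and Col15a1, which rose in the ventricle, held none of the 3, and neither did that of Col13a1, which fell. The window of Col5a1, which also rose, held the GC box core, so among those shown the motifs did not follow the direction of change.

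The genes that modify, cross-link and bind collagens were counted from lists. In F/+, of 13 tested genes of chain modification and folding 2 rose and 4 fell, with Plod1, a lysyl hydroxylase, at 1.12 and Crtap, of the prolyl 3-hydroxylase complex, at -1.06. These counts lie near the shares over all genes, 18.3% higher and 31.2% lower. Of 8 tested genes of propeptide removal and cross-linking 3 rose and 1 fell in F/+, and 4 rose in F/F, led by Lox, a lysyl oxidase that cross-links fibrils, at 12.6 FPKM against 1.80 (log2 fold change 2.44). Of 12 basement membrane partners 6 rose and 2 fell in both genotypes, with Sparcl1 at 2.85 and Lama1, a laminin chain of early basement membranes, at -1.74 in F/+. Fibril partners (2 rose and 3 fell of 9 in F/+, led by Tnxb at 2.64 and Thbs2 at 2.17), receptors (2 and 1 of 6) and breakdown genes (2 and 3 of 7, with Timp1 at -2.07 and Timp3 at 1.09) moved both ways.

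Markers of cell types moved with the same comparison. The 10 adult fibroblast markers summed to 91.8 to 139 FPKM at E11.5 and 228 to 255 at E16.5, without overlap, and 4 of 8 tested rose and 2 fell in both genotypes. Most of the rise in the sum was Gsn, with means of 34.1 and 159 FPKM in F/+ and 38.3 and 152 in F/F. Dpt and Cygb also went up, whereas Tcf21 (57.8 and 30.9 in F/+) and Pdgfra (12.2 and 1.51) went down. The 8 epicardial markers in the table summed to 207 to 324 and then 40 to 54, and 7 of 8 fell and 1 rose in both genotypes. Mesenchymal markers summed to 85.0 to 209 and then 40.7 to 53.6, and of 9 tested 5 fell in both genotypes, with 0 that rose in F/+ and 1 in F/F. Smooth muscle and mural markers summed to 1064 to 1655 and then 363.5 to 525.9, where 4 rose and 3 fell of 9. The sum was mostly Acta2 (means of 809 and 282 in F/+) and Tagln (272 and 18.8), while Kcnj8 (1.75 and 12.3) and Rgs5 (5.41 and 15.3) went up. In the E11.5 single cells described below, this list summed higher in cardiomyocyte-like cells (3662 CPM, +/+ library) than in mesenchymal-like cells (1575). Endothelial markers summed to 348 to 442 and 351 to 399. The part of these markers in the collagen changes was not tested.

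**Figure D3:**
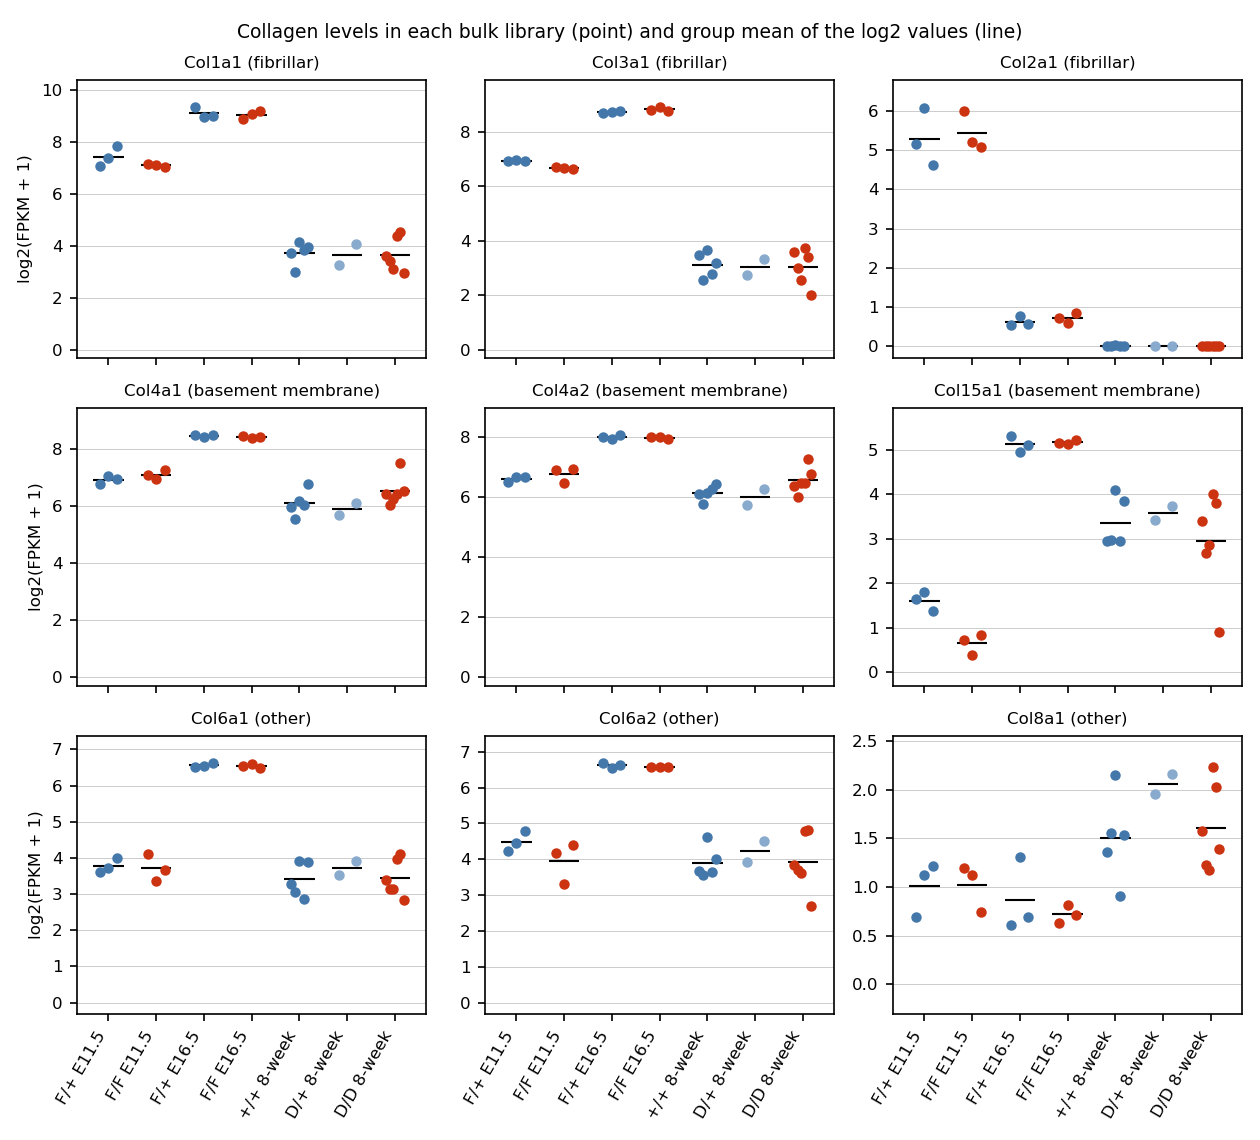
Log2(FPKM + 1) of 9 collagen genes in each bulk library, grouped along the x axis by stage and genotype, with points for libraries and a line at the mean of the log2 values. Col1a1, Col3a1, Col6a1, Col6a2 and Col15a1 are highest at E16.5, Col2a1 is high at E11.5 alone, and Col4a1 and Col4a2 keep the highest levels at 8 weeks.

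Set against E16.5 ventricles, 8-week cardiomyocytes held less of nearly every collagen. Of 26 members tested, 24 fell and 1 rose in +/+ against F/+ (69.5% of all genes called, 44.3% lower), and 24 fell and 2 rose in D/D against F/F (70.2% called, 44.7% lower). The members' median log2 fold changes were -2.55 and -2.42, beside -0.32 over all genes in each comparison. With median-ratio scaling the genes called shift from 2760 higher and 4840 lower to 3677 and 3361 in +/+, and from 2789 and 4890 to 3823 and 3447 in D/D, and 2 members rose and 22 fell of 24 tested in each. The E16.5 libraries are those of the stage comparison above. In each of these comparisons 13 members passed the filter through 1 of the groups alone.

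Fibrillar chains fell furthest, with a median of -4.55 in +/+ and -4.60 in D/D. Col1a1 stood at 12.27, 7.11, 16.74, 13.45 and 14.59 FPKM in +/+ and at 6.70 to 22.18 (median 10.5) in the 6 D/D libraries, 43.0-fold and 41.3-fold below the E16.5 means. Its log2 fold changes were -5.36 ± 0.33 and -5.38 ± 0.32. Col3a1 stood at 10.22, 4.85, 11.53, 5.89 and 8.08 FPKM in +/+ and at 3 to 12.27 in D/D, 52.2-fold and 57.0-fold lower. Col1a2 (-4.67 and -4.81), Col5a1 (-4.67 and -4.74) and Col5a2 (-4.42 and -4.46) followed. Markers of other cell types also differed between these samples. Epicardial markers summed to 2.55 to 9.75 FPKM against 39.8 to 53.7 at E16.5, and all 6 tested fell in both comparisons. Of 8 immune markers 6 fell and 1 rose in both, and of 11 endothelial markers 5 fell and 2 rose in +/+ and 4 fell and 2 rose in D/D. Of 9 fibroblast markers 3 fell and 2 rose in +/+ (median -0.18) and 3 fell and 3 rose in D/D (median 0.08), Tcf21 among those that fell and Dcn among those that rose, with sums of 106 to 567 FPKM against 228 to 255. The part of these markers in the collagen changes was not tested.

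The type IV pair fell less. Col4a1 was at 62.38, 46.44, 72.32, 64.59 and 108.09 FPKM in +/+ and 65.17 to 180.16 in D/D, log2 fold changes of -2.36 ± 0.27 and -1.90 ± 0.26. Col4a2 was at 53.79 to 85.95 in +/+ and 63.64 to 154.35 in D/D (-1.86 ± 0.22 and -1.42 ± 0.21). Per library, Col4a1 ranged from 4.31 to 13.6 times Col1a1, against 0.537 to 1.17 times at both embryonic stages. The multiplexins parted again, with Col18a1 at 2.30 to 5.22 FPKM over all 13 adult libraries (-4.83 ± 0.19 and -4.64 ± 0.19) and Col15a1 at 0.89 to 16.23 (-1.76 ± 0.49 and -2.22 ± 0.47). The Col15a1 to Col18a1 ratio was at most 0.0164 at E11.5, 0.256 to 0.317 at E16.5, and 0.263 to 4.68 at 8 weeks. Type VI chains fell by a median of 2.71 and 2.76 on the log2 scale.

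The members that rose were low. Col8a1, a short-chain network collagen of vessel walls, went from 0.53 to 1.47 FPKM at E16.5 to 0.88 to 3.70 at 8 weeks. Its log2 fold change was 0.63 ± 0.27 in +/+ (adjusted p = 0.0436, with groups that overlapped) and 0.88 ± 0.26 in D/D (adjusted p = 0.00546). The +/+ call was lost without a filter on low values (adjusted p = 0.0624), with the replicate number as a block (0.56, adjusted p = 0.117) and without any 1 of 5 libraries (adjusted p 0.0596 to 0.165). Col5a3, the third type V chain, was near 0 at E11.5, 0.66 to 0.91 FPKM at E16.5 and 1.12 to 8.97 at 8 weeks, and was called in D/D (1.09 ± 0.29, adjusted p = 0.00318) and not in +/+ (0.52 ± 0.30, adjusted p = 0.135), where scaling by the median ratio brought it to 0.72 (adjusted p = 0.0423).

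The genes that process and bind collagens are read here beside the 44.3% of all genes that were lower in +/+. Of 9 tested genes of propeptide removal and cross-linking 8 fell and 1 rose in both comparisons, with Loxl2 at -4.20 and Lox at -2.87 in +/+. Of 13 tested chain modification genes 7 fell and 1 rose in +/+, close to that share, led by P4ha3, a prolyl hydroxylase subunit, at -3.76 and by Serpinh1, the collagen chaperone, at 112 FPKM against 492. All 4 tested receptors fell, among them Ddr1 at -3.27 and Mrc2 at -1.79, and 7 of 11 basement membrane partners fell and 2 rose, among them Nid2 at -3.45. Of 8 fibril partners 3 fell and 2 rose. Dcn, a small proteoglycan of fibrils and a fibroblast marker, rose by 3.53, and Fn1, fibronectin, fell by 3.41 on the log2 scale.

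Genotype was compared within each stage, and no collagen gene was called. What loss of Hand2os1 does to these genes is only partly addressed by this. The embryonic controls carry 1 knockout allele, and at E11.5 the target had a value of 0 in controls as well. At 8 weeks the D allele removes the 3′ distal part only, and the target was at 0 in +/+ replicate 5. With limma, 0 of 27 members passed at E11.5 (0.0087% of 11491 genes did), 0 of 25 at E16.5 (0.00935%) and 0 of 15 at 8 weeks (0%). At an unadjusted p under 0.05 there were 1, 0 and 2 members, where 4.37%, 2.63% and 1.71% of all genes stood. No gene of the 6 pathway lists was called in any of the 3 comparisons.

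At E11.5 the lowest p belonged to Col15a1, at 0.59 ± 0.25 FPKM in F/F and 2.09 ± 0.47 in F/+ (SD, n = 3 each), levels at the edge of the filter. It passed the filter only through F/+, the group in which it was higher. The groups did not overlap, and the log2 fold change was -0.96 ± 0.37 (limma, adjusted p = 0.999). Col3a1 stood at 100.5 ± 3.1 in F/F and 122.1 ± 3.2 in F/+ and also did not overlap (-0.28 ± 0.14, adjusted p = 0.999). Col13a1 was higher without overlap, 14.27 to 15.86 against 10.21 to 11.74. These were 1 member higher and 2 lower without overlap, where 4.93% and 4.31% of all genes were so. Col1a1, Col1a2, Col4a1 and Col4a2 overlapped between genotypes, with log2 fold changes from -0.32 to 0.18.

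At E16.5 the same genes lay close together. Col3a1 was 455 ± 24.1 in F/F and 423 ± 10.4 in F/+ (0.10 ± 0.08), Col15a1 35.1 ± 1.03 and 34.1 ± 4.45 (0.04 ± 0.11), and the lowest p was that of Col8a2 (0.21, adjusted p = 0.9999). No overlap was seen for 2 members, both higher in F/F (3.9% of all genes). The difference between the 2 stages in the genotype effect was tested as an interaction, which called 0 of 28 members (0.00875% of genes). Col15a1 had an interaction of 1.0 ± 0.25 (adjusted p = 0.828) and Col3a1 of 0.38 ± 0.13 (adjusted p = 0.999), and these were the 2 members under an unadjusted p of 0.05, where 4.32% of all genes stood.

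The adult comparison set 6 D/D libraries against 5 +/+ and 2 D/+ libraries as 1 control group. Col4a1 was 97.2 ± 41.7 FPKM in D/D (n = 6) and 67.6 ± 20.1 in controls (n = 7), and Col4a2 was 97.5 ± 31.3 and 69.0 ± 12.5. The log2 fold changes were 0.48 ± 0.23 and 0.46 ± 0.19, both with an adjusted p of 0.9999, and the groups overlapped. Col5a3 followed at 3.27 ± 2.82 against 1.60 ± 0.41 (0.55 ± 0.26). The library labelled D/D replicate 5 was the highest of all 13 in Col4a1 (180.16), Col4a2 (154.35) and Col5a3 (8.97). It also had the highest summed endothelial (597 FPKM) and fibroblast (567) markers, whose part in these values was not tested. Without it the log2 fold changes were 0.29, 0.32 and 0.27.

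The 8-week libraries fall into sets that cross the genotypes. The split that separates most genes without overlap (1452 of 10128) sets +/+ replicate 5 and D/D replicates 5 and 6 apart from the other 10, and the labels do not say what it is. Within the 10, Col4a1 was 65.17 to 85.71 FPKM in 4 D/D libraries and 46.44 to 72.32 in 6 controls, and Col4a2 was 63.64 to 88.32 and 51.84 to 77.17, ranges that overlapped. Within the 3, Col4a1 was 91.3 and 180.16 in D/D and 108.09 in the control. Col1a1, Col1a2 and Col3a1 had log2 fold changes between -0.20 and -0.05 over all 13.

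The single-cell libraries show which cells of the E11.5 heart held these transcripts. They had 2563 (+/+) and 3469 (F/F) barcodes with 38302758 and 51432290 UMIs, of which 25025 (0.0653%) and 30942 (0.0602%) were collagen UMIs. After filters 2503 and 3368 cells were clustered without the collagen genes and named from marker genes, and 18 barcodes occurred in both libraries. No test is possible with a single library of each genotype, and the intervals given are exact Poisson intervals at 95% that cover counting error only. Collagen made up 0.170 and 0.151% of UMIs in epicardial-like cells (+/+ and F/F), 0.167 and 0.138% in endothelial and endocardial-like cells, 0.146 and 0.123% in mesenchymal-like cells and 0.0444 and 0.0440% in cardiomyocyte-like cells. In erythroid-like cells it was 0.00281 and 0.00482%, led by Col18a1 at 11.3 and 12.6 CPM, with Col4a1 at 0.94 and 3.29. How much of this is free RNA was not tested. The most collagen-rich cells were cluster 14, with 0.208 and 0.193%, which was left unnamed and is led by Rgs5, Eln and Isl1.

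**Figure D4:**
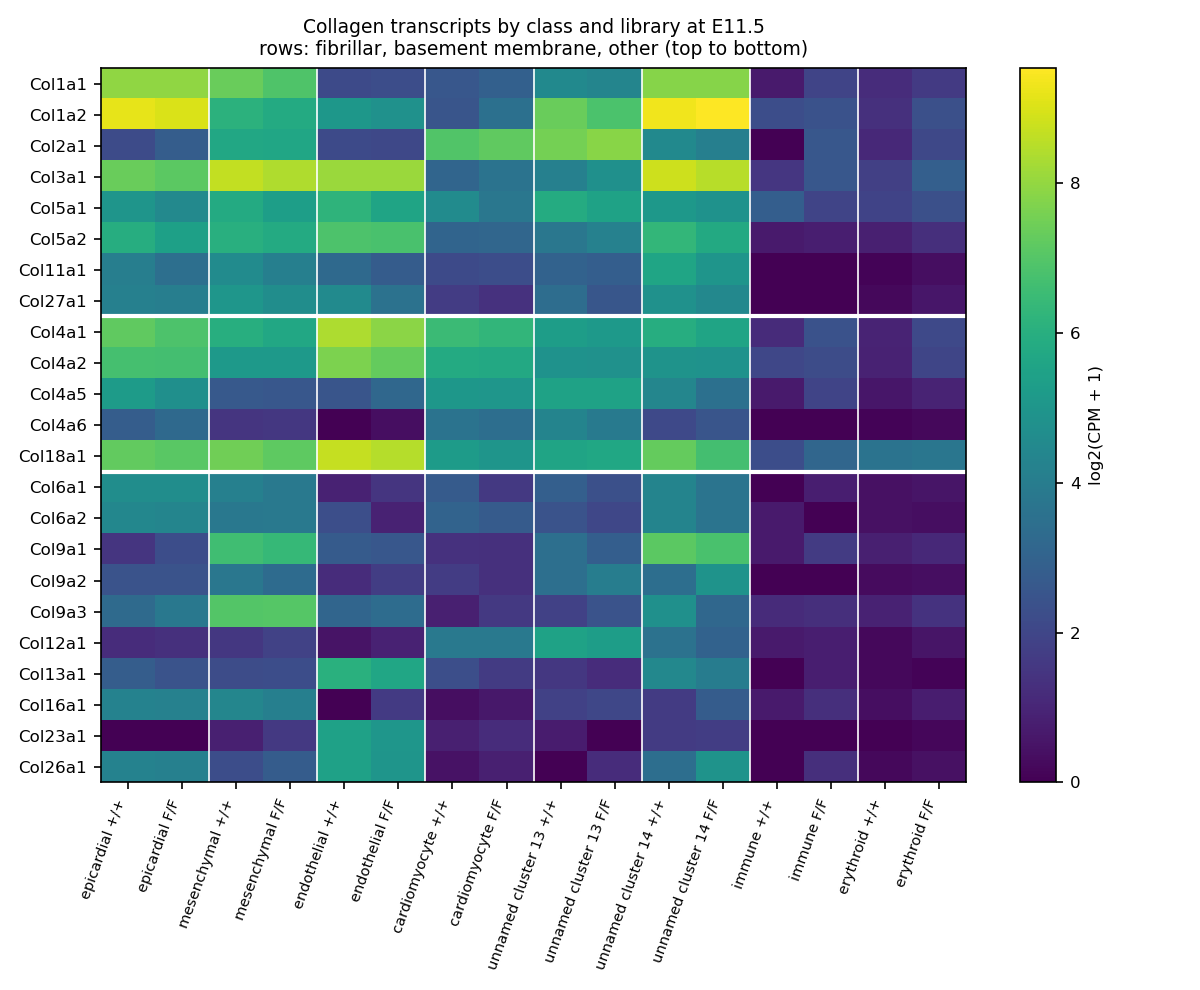
Heat map of log2(CPM + 1) for the 23 collagen genes with at least 200 UMIs over both libraries, in 8 cell classes of the +/+ and the F/F library. The 2 libraries give nearly the same pattern, with type I highest in epicardial-like cells and cluster 14, type IX in mesenchymal-like cells and types XIII, XXIII and XXVI in endothelial and endocardial-like cells.

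The abundant collagens differed in the class where they were highest. Of 23 members with at least 200 UMIs, 21 had the same highest named class in both libraries. Among the named classes Col1a2 was highest in epicardial-like cells, at 577 (546 to 609) CPM in +/+ and 506 (484 to 528) in F/F, and 8.27-fold and 8.98-fold lower in mesenchymal-like cells, the second class. Col1a1 was less uneven, at 250 (230 to 271) and 245 (229 to 260) in epicardial-like cells and 164 and 119 in mesenchymal-like cells, so the 2 chains of type I had different cell distributions. Endothelial and endocardial-like cells had Col1a1 at only 3.45 (1.49 to 6.79) and 3.81 (2.03 to 6.51) CPM, but Col3a1 at 278 and 272. Col3a1 was highest in mesenchymal-like cells at 402 (386 to 417) and 340 (327 to 353).

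Col2a1 was highest in cardiomyocyte-like cells, at 122 (114.6 to 130.5) and 149 (142 to 156) CPM, above mesenchymal-like cells at 52.2 and 49.0. Epicardial-like cells held 3.49 and 5.99. By cluster it was 199 and 208 in cardiomyocyte-like cluster 11, which expresses Myl2 and Myl3, and 56.0 and 56.8 in cluster 7, which expresses Nppa. Cluster 13, an unnamed cluster with cardiomyocyte markers led by Rspo3, Sema3c and Bmp4, held 184 and 228. Its type IX partners were elsewhere. Col9a1 was 96.5 (89.0 to 105) and 83.5 (77.1 to 90.3) in mesenchymal-like cells and Col9a3 was 126 and 128 there, so the highest levels of types II and IX lay in different classes.

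Of the basement membrane chains, Col18a1, Col4a1 and Col4a2 were highest in endothelial and endocardial-like cells. There Col18a1 was 418 (392 to 445) and 359 (340 to 380) CPM, Col4a1 328 (305 to 352) and 233 (217 to 250), and Col4a2 200 (182 to 219) and 156 (143 to 170). Within the class, cluster 4, with Emcn, Plvap and Npr3 among its leading genes, held Col4a1 at 425 and 332 and cluster 3 at 204 and 139. Col5a1 was the reverse, at 19.9 and 18 in cluster 4 and 139 and 73.1 in cluster 3. Col4a5 was highest in epicardial-like cells (36.2 and 25.7) and in cardiomyocyte-like cells (32 and 31). Col4a6 had 0 UMIs in endothelial and endocardial-like cells of the +/+ library, which allows up to 1.59 CPM, and 1 in those of the F/F library. It was 11.3 (9.06 to 14) and 9.79 (8.07 to 11.8) in cardiomyocyte-like cells.

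Col13a1 and Col23a1, both transmembrane, were highest in endothelial and endocardial-like cells. Col13a1 stood at 65.0 (55.1 to 76.3) and 48.6 (41.5 to 56.6) CPM in endothelial and endocardial-like cells, 10.6-fold and 10.8-fold above the second class, and Col23a1 at 43.5 (35.4 to 52.9) and 31.3 (25.7 to 37.9). Col26a1 was 43.5 and 30.2 in the same class, and in cluster 4 it was 69.7 and 45.7. Some members that were low in E11.5 bulk were low here as well, with 24 UMIs of Col15a1 in both libraries together, 128 of Col14a1 and 92 of Col6a3. Others were not, since Col9a3, at a mean of 2.42 FPKM in F/+ bulk, had 1990 UMIs and Col12a1, at 2.54, had 487. Type VI was spread thinly, Col6a1 being highest in epicardial-like cells at 24.9 and 24.5 CPM.

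Between the libraries, 1 collagen gene stood out by the 1.5-fold rule for genes with at least 100 UMIs on each side. Col5a1 was 23.2 CPM in cardiomyocyte-like cells of the +/+ library and 12.8 in those of the F/F library, a ratio of 0.553 (0.442 to 0.692). Of the 6470 genes compared there, 1.14% were lower by more than 1.5-fold. In endothelial and endocardial-like cells Col5a1 was 71.9 and 46.3, a ratio of 0.644 (0.514 to 0.805), where 2.24% of 3083 genes were lower by more than 1.5-fold. Mesenchymal-like cells gave a ratio of 0.714 (0.610 to 0.836), 56.2 against 40.1. No member with that many UMIs passed 1.5-fold in mesenchymal-like or epicardial-like cells, where 1.84% and 2.99% of the genes compared did. Thinned to 5000 UMIs per cell, the endothelial ratio moved to 0.459. Not every cluster followed, since cluster 4 held 19.9 and 18 and cluster 15 held 9.8 and 14. The makeup of the cardiomyocyte-like class also differed, with 205 of 479 cells from cluster 7 in +/+ and 240 of 784 in F/F. The part of this in the Col5a1 ratio was not tested. Bulk E11.5 hearts gave 35.4 ± 3.45 FPKM in F/F and 35.9 ± 2.46 in F/+, with a control genotype other than that of the single-cell library.

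**Figure D5:**
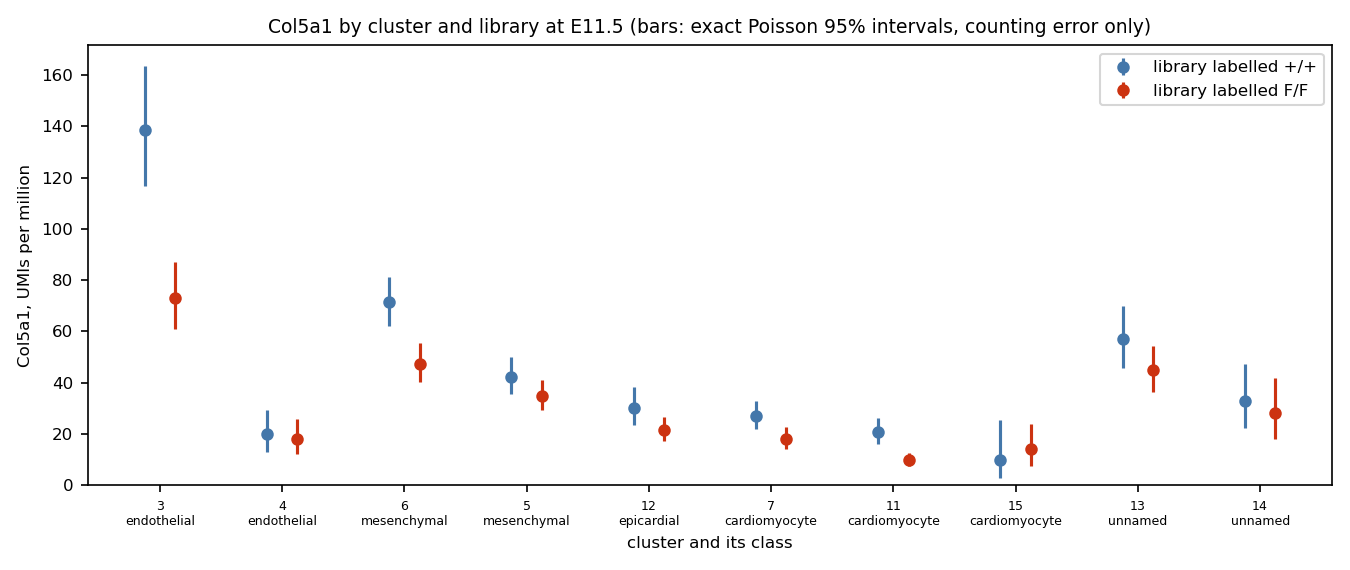
Col5a1 in CPM by cluster in the +/+ and the F/F single-cell library, with 95% Poisson intervals that cover counting error. Cluster 3 falls from 139 to 73.1 and cluster 11 from 20.7 to 9.8, while cluster 4 is at 19.9 and 18.

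Among members with at least 100 UMIs on each side, the others passed 1.5-fold in none of the 4 classes. Some rarer members differed more between the libraries, with wide intervals. In cardiomyocyte-like cells Col6a1 had a ratio of 0.352 (0.202 to 0.597) and Col1a2 of 2.21 (1.51 to 3.30), and in endothelial and endocardial-like cells Col27a1 had a ratio of 0.488 (0.313 to 0.754). These 3 were chosen after their values were seen. The median log2 ratio of F/F to +/+ over members above that count was -0.09 in cardiomyocyte-like (7 members), -0.42 in endothelial and endocardial-like (9), -0.19 in epicardial-like (7) and -0.27 in mesenchymal-like cells (15). Over all genes it was between -0.05 and 0.00 in these classes. Marker sums moved between the libraries too. In endothelial and endocardial-like cells their own markers summed to 2118 CPM in +/+ and 1799 in F/F and cardiomyocyte markers to 795 and 1461. In mesenchymal-like cells these sums were 3061 and 2516 for their own markers and 1367 and 1819 for cardiomyocyte markers, and in epicardial-like cells 2788 and 2551, and 3550 and 3950. Their part in the collagen ratios was not tested. Whether this reflects the genotype or the library cannot be told apart with 1 library each.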

How the data were processed

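Bulk values are FPKM as deposited by the authors, the unit being read from the values because no label states it. TopHat2 2.0.11, CASAVA and mm9 are named in the submitters' processing notes, as are Cell Ranger and mm10 for the single cells. UMI counts per gene and barcode were deposited by the authors. Other upstream steps are not given in the sources used here.

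Of 24525 bulk lines, 270 repeated symbols had identical lines and were kept once, and 1 gene with a blank cell was dropped. Tests used limma 3.58.1 (R 4.3.3) with trend on log2(FPKM + 1), so fold changes of low genes are understated, on genes that averaged 1 FPKM or more in the fit, with Benjamini-Hochberg adjustment over all of them. The E11.5 and E16.5 genotype tests used the 6 libraries of the stage, the stage tests and interaction all 12 embryonic libraries, and the tests of 8 weeks against E16.5 the groups of both ages. Replicates of a group correlated at 0.947 to 0.992 and at most 2.02% of their values were identical, so none was taken for a repeat.

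Cells with at least 500 genes were kept, 52 (+/+) and 96 (F/F) barcodes with the highest doublet scores were taken out (0.8% for every 1000 barcodes) because the automatic threshold marked only 22, and the rest were clustered with scanpy 1.11.5 (2000 variable genes without collagens, 30 components, 15 neighbours, Leiden resolution 1). Between the libraries, ratios of CPM have exact conditional intervals at 95%.

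The members and lists were chosen with earlier results of these data known. Genes are named by size in the stage comparisons (log2 fold change of at least 1 and a mean of at least 5 FPKM, at most 12), by the 3 lowest p-values plus Col1a1, Col1a2, Col3a1, Col4a1 and Col4a2 for genotype, and by UMIs in single cells. Other members are given so that each is accounted for, and Col5a1 and Col8a1 were chosen for their sequence after their values were seen. Genes most like Col1a1 and Col4a1 across the 12 embryonic libraries are not given, since these fall into 2 stage clusters. Scripts were tested on simulated data. Alternatives were another pseudocount, no filter, other scalings, a replicate block, 1 fit of all 25 libraries and leaving out each library. The term for the split of the 8-week libraries was added after seeing the data.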

Additional observations from a re-analysis of the deposited data

Results flagged for a closer look

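In the 8-week D/D group the library labelled D/D replicate 5 stood far from the other 5 in 3 members. Col4a1 was 180.16 FPKM there, with the next library at 91.3 and the lowest at 65.17. Col5a3 was 8.97, with the next at 2.66 and the lowest at 1.7. Col18a1 was 5.22, with the next at 3.96 and the lowest at 3.22. In each the gap to the next library, as a share of the group's range (0.773, 0.868 and 0.63), passed Dixon's 95% value for 6 samples. The same library had the highest summed endothelial and fibroblast markers of the 13, at 597 and 567 FPKM. In all, 3 of 32 group and gene combinations at 8 weeks gave such a value, and chance gives about 1 in 20.

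Col3a1 lay lower in F/F than in F/+ in every library at E11.5 and higher in every library at E16.5. The difference between the stages was 0.38 on the log2 scale by the interaction term in limma, with an adjusted p of 0.999.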

How the results depend on the processing

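All counts of called collagen genes stayed within 1.5 times the reported ones. Over other settings they were 21 to 25 in the F/+ stage comparison, 23 to 28 in F/F, 24 to 33 for +/+ at 8 weeks and 24 to 35 for D/D, and leaving out 1 library gave 21 to 22, 23 to 24, 23 to 25 and 24 to 26. Genotype and interaction counts stayed at 0. Replicate numbers did not pair the samples (correlations of same-numbered deviations from -0.0356 to 0.0821 at E11.5, -0.435 to 0.042 at E16.5 and -0.107 to 0.527 at 8 weeks). With the replicate block the counts were 22, 25, 24 and 26, and 0 for genotype, and the 8-week genotype effects of Col1a1 and Col3a1 turned to 0.0084 and 0.14. Leaving out 1 library took small log2 effects across 0: Col1a2 at E11.5 (-0.20 to 0.049), Col1a1 (-0.12 to 0.073), Col1a2 (-0.088 to 0.055), Col4a2 (-0.051 to 0.0098) and Col15a1 (-0.040 to 0.14) at E16.5, Col1a1 (-0.23 to 0.089) and Col3a1 (-0.19 to 0.16) at 8 weeks, and the stage effects of Col9a2 in F/+ (-0.024 to 0.23) and F/F (-0.19 to 0.47) and of Col11a1 in F/+ (-0.38 to 0.013). None of these was called. The fit of all 25 libraries called Col4a6 and Col9a3 in F/+ (adjusted p = 0.0228 and 0.0146) and Col26a1 in F/F (0.0469) as well, and lost Col18a1 in F/+ and F/F (0.20 and 0.0567). The block added Col26a1 in F/F and lost Col8a1 in +/+ (0.0493 and 0.117). The cause was not tested. The number of reads behind each FPKM is unknown, so no counting error can be given for members near the filter.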

Other observations

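Cluster 14, unnamed and led by Rgs5, Eln and Isl1, held the highest Col1a2 of any group of cells with at least 50 cells per library, at 641 CPM in the +/+ and 744 in the F/F library, and Col11a1 at 48.3 and 30.4. Cluster 13, unnamed and led by Rspo3, Sema3c and Bmp4, held Col12a1 at 44.7 and 38.5 CPM, against 13.4 in cardiomyocyte-like cells of both libraries. Within mesenchymal-like cells, Col2a1 was 88.6 and 83.0 CPM in cluster 6, led by Inhba and Postn, and 18.3 and 24.1 in cluster 5, led by Msx1 and Twist1.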
